A study of Homo sapiens with 6 samples.

Results

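Tubulins and kinesins were followed through PQBP1 knockdown in HEY cells, a human ovarian cancer cell line. They are the genes of the deposited table whose symbols start with TUBA, TUBB or TUBG and a digit, or are TUBB, or are KIF or KIFC with a digit. Hyphenated symbols and symbols ending in P or in P and digits were left out. The rule found 54 of the 32679 genes in the table, namely 7 alpha-tubulins, 8 beta-tubulins, 2 gamma-tubulins and 37 kinesins. It left out 16 other symbols, mostly tubulin pseudogenes, and with them KIF1BP, a kinesin-binding protein counted among the kinesin partners instead. The kinesins were sorted by textbook role into 13 that act in cell division, 13 of the cargo-carrying kinesin-1, kinesin-2 and kinesin-3 families, and 11 others.

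Alpha- and beta-tubulin pair into the dimers from which microtubules are built, and gamma-tubulin sits at the base of a growing microtubule, where it starts the polymer. Kinesins are motor proteins that use ATP to walk along microtubules or to take their ends apart. In dividing cells they build the spindle, move chromosomes and organise the midzone at which the daughter cells separate, and in resting and dividing cells alike they carry vesicles, organelles and RNA. Several of these genes have close copies, so that reads can be split wrongly among TUBA1A, TUBA1B and TUBA1C, between TUBB2A and TUBB2B, between TUBG1 and TUBG2, and between KIF4A and its intronless copy KIF4B.

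RNA-seq values were given for 3 samples with a control hairpin (shNC) and 3 with a hairpin against PQBP1 (shPQBP1), all labelled day 3. The shPQBP1 samples had received doxycycline at 1 microg/ml and the shNC samples had no treatment, so the hairpin and the drug cannot be told apart. Nothing states that the samples of a group were separate cultures, and p-values then measure only the spread between these samples, which may be technical. The values are FPKM, which carry no counts, so the depth of the samples is unknown and no counting interval is given. In bulk samples, fewer cells of a type and less RNA per cell cannot be told apart either.

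PQBP1 (ENSG00000102103, chromosome X of hg38, 48890197 to 48903402) had 7.18, 6.67 and 6.93 FPKM in shNC cells and 1.68, 1.72 and 1.44 FPKM in shPQBP1 cells. The log2 fold change, computed on log2(FPKM + 0.1) throughout, was -2.04 (standard error, SE, 0.10, limma adjusted p = 0.00154), and the exact two-sided permutation test gave p = 0.1, the minimum of this design. Of 9 markers of ovarian carcinoma and epithelium, 5 passed the filter on low values (a mean of at least 1 FPKM), with KRT7 at 55.04 to 70.35 FPKM and PAX8 at 12.33 to 15.7 FPKM in shNC and 18.41 to 24.08 FPKM in shPQBP1 cells (limma adjusted p = 0.102). As deposited, 0 of the 5 passed the adjusted threshold and 1 (PAX8) had an unadjusted p under 0.05 (limma). At that unadjusted threshold, 11.9% of all genes were higher. CDH1 and MUC16 were at 0.06 FPKM or below in each sample, and the leukocyte marker PTPRC was listed at 0 in all 6. shNC sample 1 stood apart, with correlations of 0.926 to 0.955 with the other samples. Its log2 difference from the other shNC samples followed the GC content of the transcripts (Spearman's rho = 0.613 over 11385 genes, which are not independent replicates). Results are therefore given also GC-corrected and without that sample. GC-corrected values have the dependence of each sample on GC content and transcript length, as fitted over all genes, taken out. GC-corrected, 4 of the 5 epithelial markers (PAX8, KRT8, KRT18 and KRT19) were higher at an adjusted p under 0.05 (limma), against 4.96% of all genes. KRT7 had a log2 fold change of -0.16 as deposited and 0.06 GC-corrected. Under the filter, WT1 was lower without overlap (0.63, 0.71 and 0.68 against 0.31, 0.34 and 0.45 FPKM), and EPCAM had a lower mean with overlap. All 4 mesenchymal markers (VIM, CDH2, FN1 and ZEB1) had log2 fold changes above 0. FN1 alone passed the adjusted threshold as deposited (log2 fold change 1.72, limma adjusted p = 0.00176), against 2.91% of all genes.

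The promoters of the genes that the results turn on are shown first. RefSeq promoters (GRCh38.p14) were matched by symbol for 47 of the 54 genes. The 250 bases before each start were searched on both strands for TTTGAA, the core of the cell cycle homology element found in many late cell cycle genes, and for CCAAT, the box bound by NF-Y, and these motifs do not overlap each other. Among the 14 promoters of the 13 mitotic kinesins, 11 (78.6%) held CCAAT, 5 (35.7%) held TTTGAA and 4 (28.6%) held both. Over all 35116 promoters of the same length the shares were 32%, 13.3% and 4.7%. The 16 promoters of 11 cargo-carrying kinesins held CCAAT in 5 (31.2%) and TTTGAA in 1 (6.2%). The promoters of TUBG1 and TUBG2 each held CCAAT and not TTTGAA, and KIF2C was the mitotic kinesin with neither. A match is a description and not a binding site.

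The last 120 bases before the start, 5′ to 3′ on the strand of the gene, are printed for 5 genes, chosen because KIF2C and TUBG1 had lower values after knockdown (TUBG1 short of the adjusted threshold), KIF11 and KIF18A were lowest in shNC sample 1, and KIF20A overlapped between the groups. The capitals mark either motif or its reverse complement. The starts are those of RefSeq and differ from the gene positions given elsewhere, which are those of GENCODE. By GENCODE, the KIF11 and KIF20A windows lie inside the gene, and the KIF2C and TUBG1 windows run past its start. KIF2C lies at chr1:44739717-44739836 (plus strand), TUBG1 at chr17:42609563-42609682 (plus), KIF11 at chr10:92593010-92593129 (plus), KIF18A at chr11:28108157-28108276 (minus) and KIF20A at chr5:138178992-138179111 (plus).
KIF2C: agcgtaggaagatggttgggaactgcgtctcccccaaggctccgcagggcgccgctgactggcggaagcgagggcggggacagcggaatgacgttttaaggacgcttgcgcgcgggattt
TUBG1: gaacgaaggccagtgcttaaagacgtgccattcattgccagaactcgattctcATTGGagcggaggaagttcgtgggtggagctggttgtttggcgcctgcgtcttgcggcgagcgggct
KIF11: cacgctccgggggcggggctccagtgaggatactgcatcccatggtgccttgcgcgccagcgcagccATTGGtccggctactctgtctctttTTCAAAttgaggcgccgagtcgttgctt
KIF18A: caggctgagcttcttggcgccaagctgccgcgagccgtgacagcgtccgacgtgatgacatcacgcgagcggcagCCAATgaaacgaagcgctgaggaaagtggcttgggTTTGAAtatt
KIF20A: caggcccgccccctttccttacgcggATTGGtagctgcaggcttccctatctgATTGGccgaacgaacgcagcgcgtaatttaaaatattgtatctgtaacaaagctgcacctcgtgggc

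No letters are in capitals in KIF2C, and TUBG1 shows a single CCAAT box, starting at base -67 from the start. KIF11 and KIF18A pair a CCAAT box with TTTGAA downstream of it, at -53 and -28 in KIF11 and at -45 and -10 in KIF18A. KIF20A has CCAAT boxes at -94 and -67 and no TTTGAA. A link between motifs and values was not tested. KIF4A, whose groups overlapped (log2 fold change 0.04), also pairs the motifs, at -58 and -34. So does KIF23, lowest in shNC sample 1. Of others lowest in that sample, KIF14 and KIF20B held CCAAT without TTTGAA, and KIF15 held TTTGAA without CCAAT. KIF18B and KIFC1, lower in all shPQBP1 samples, held CCAAT without TTTGAA.

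Of the 54 genes, 38 passed the filter and were tested, 12 tubulins and 26 kinesins. At a limma adjusted p under 0.05 (Benjamini-Hochberg, 11413 genes tested), 1 differed, KIF2C, which was lower in the shPQBP1 samples. The share over all genes was 2.91%. At an unadjusted p under 0.05, 2 of the 38 were higher (KIF14 and KIF13A) and 7 were lower (KIF2C, KIF18B, TUBG1, TUBG2, TUBB2A, KIF7 and KIF13B), where 11.9% and 11.7% of all genes were called in the same directions. With a fold change of 2 asked for as well (limma), 0 of the 38 were called, against 1.52% of all genes. The groups did not overlap in 1 higher and 10 lower members, where the shares over all genes were 17.3% higher and 17.1% lower. The median log2 fold change was -0.01, against 0.02 over all genes.

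The directions are described by kind of gene, with no test of a difference between kinds. Of the 12 tubulins tested, 9 had a log2 fold change below 0 and 3 above, with a median of -0.12. Of the 12 mitotic kinesins tested, 8 were above 0 and 4 below, with a median of 0.22. GC-corrected, the medians were 0.03 for the tubulins and 0.18 for the mitotic kinesins, and without shNC sample 1 they were -0.07 and 0.14. Without shNC sample 1, KIF2C and TUBG1 had an adjusted p under 0.05 (limma), beside TUBB2B, whose groups overlapped through the sample left out and whose call that choice fixes. The share over all genes in that fit was 4.07%. At an unadjusted p under 0.05, 4 members were higher and 7 were lower there, against 13.4% and 11.4% of all genes. The 16 members under the filter had mean levels from 0 (TUBA3E, at 0 in each sample) to 0.685 FPKM (KIF27), and the lowest member above it was KIFC2 at 1.15 FPKM.

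**Figure D1:**
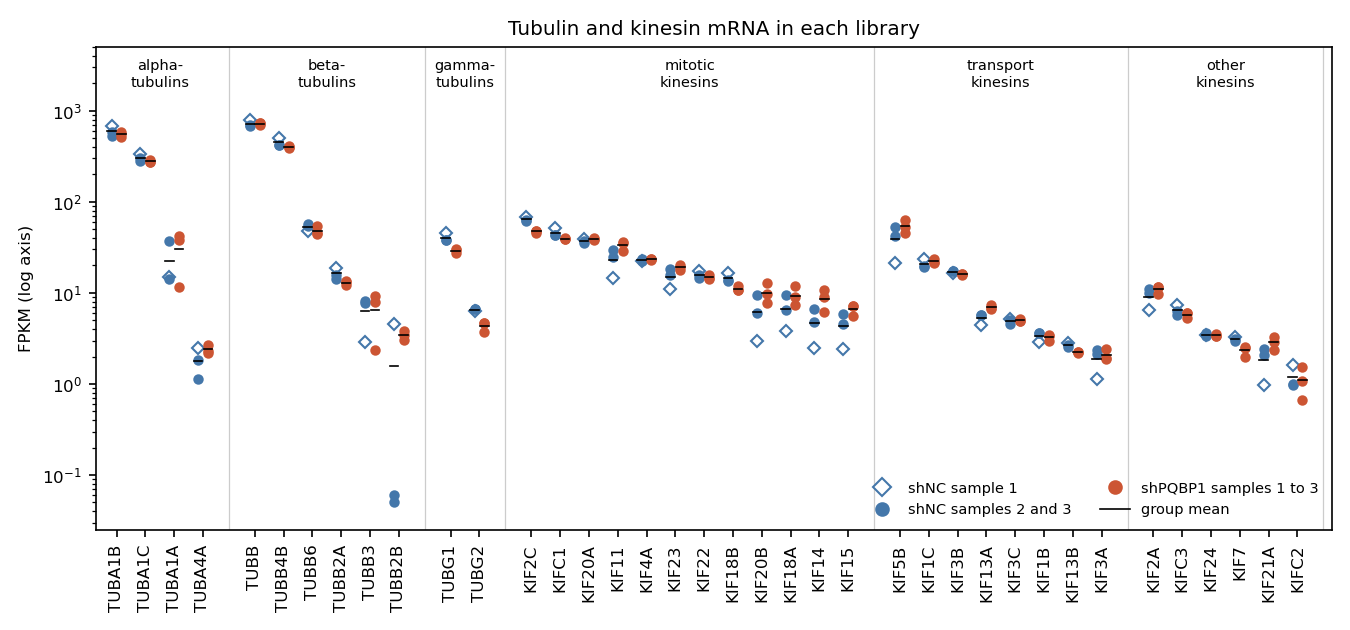
FPKM (log axis) of the 38 tested genes in each sample, ordered by mean level within each role. Points are samples, the open diamond is shNC sample 1 and the black lines are group means. KIF2C, TUBG1, TUBG2 and KIF18B have 3 shPQBP1 samples below all 3 shNC samples, while KIF11, KIF14, KIF15, KIF18A, KIF20B, KIF23 and KIF5B are lowest in shNC sample 1.

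**Figure D2:**
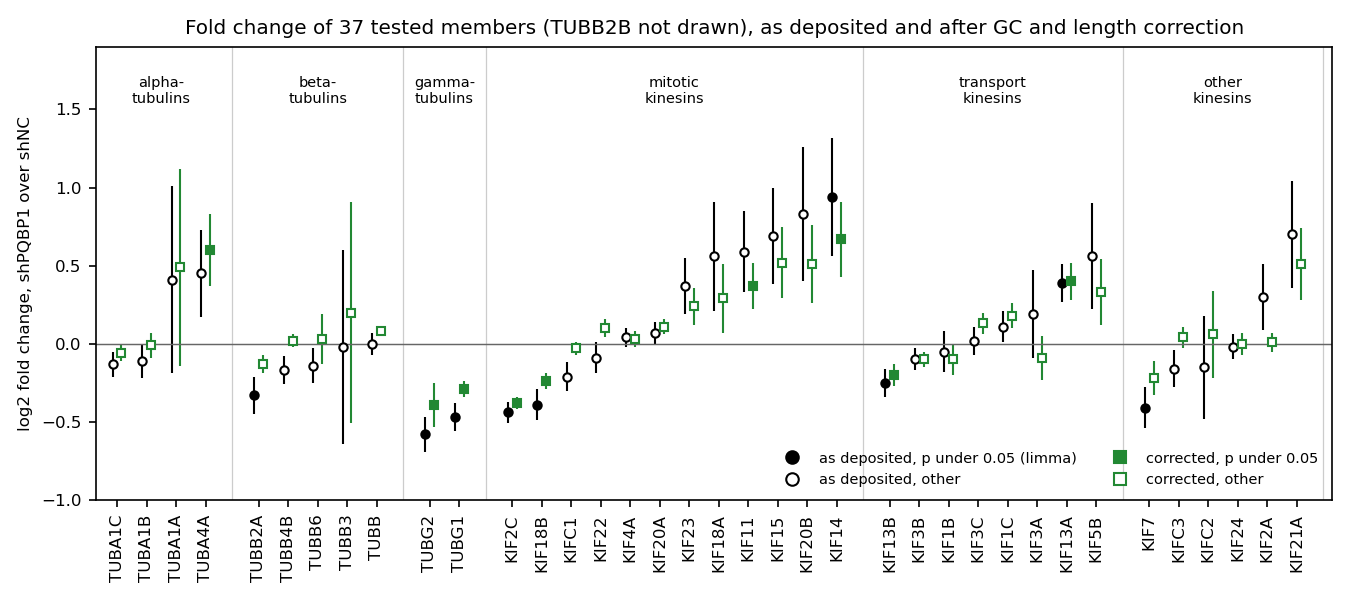
Log2 fold change of shPQBP1 over shNC for 37 of the 38 tested genes (TUBB2B, at 2.88, lies outside the axis), with bars of 1 standard error, as deposited (circles) and GC-corrected (squares). Filled symbols have an unadjusted p under 0.05. TUBG1, TUBG2, KIF2C and KIF18B stay below 0 in both, while TUBB4B and KIFC1 move towards 0 when GC-corrected.

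TUBA1B and TUBA1C made up nearly all of the alpha-tubulin mRNA, and neither changed beyond the spread between samples. TUBA1B, a widely expressed isotype, had 678.90, 584.54 and 528.19 FPKM in shNC cells and 549.38, 514.90 and 590.74 FPKM in shPQBP1 cells. TUBA1C, likewise widely expressed, had 336.88, 298.69 and 279.87 against 275.55, 270.06 and 290.04 FPKM. The groups overlapped in both genes, with shNC sample 1 the highest, and the log2 fold changes were -0.11 (limma adjusted p = 0.545) and -0.13 (limma adjusted p = 0.375). TUBA1B held 64.4% ± 1.2 of the summed alpha-tubulin FPKM in shNC cells and 63.9% ± 2.01 in the shPQBP1 samples (SD, n = 3 each), and TUBA1C held 33% ± 0.875 and 32.3% ± 0.366. TUBA1A, the main isotype of developing neurons, had 14.80, 37.53 and 14.05 FPKM against 37.69, 42.14 and 11.56 FPKM. It was high in shNC sample 2 and shPQBP1 samples 1 and 2 and low in the rest, so that the groups overlapped. TUBA4A had 1.8 ± 0.67 FPKM in shNC cells and 2.4 ± 0.264 FPKM in shPQBP1 cells (log2 fold change 0.45, limma adjusted p = 0.346).

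Among the beta-tubulins, TUBB and TUBB4B supplied most of the mRNA. TUBB, the class I isotype of most tissues, had 794.59, 683.80 and 688.29 FPKM in shNC cells and 704.58, 725.77 and 726.89 FPKM in shPQBP1 cells (log2 fold change -0.00, limma adjusted p = 0.982). TUBB4B, the class IVb isotype of most tissues, had 507.28, 420.29 and 421.67 FPKM against 388.51, 407.70 and 395.85 FPKM. The shPQBP1 samples of TUBB4B all lay below the shNC samples, of which sample 1 was the highest, and its log2 fold change was -0.17 (limma adjusted p = 0.281) and 0.02 GC-corrected. TUBB6, the class V isotype, had 47.83, 56.77 and 53.66 FPKM against 44.38, 44.94 and 54.03 FPKM, and its groups overlapped.

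The share of TUBB in the summed beta-tubulin FPKM was 57.7%, 57.8% and 57.9% in shNC cells and 60.6% in each shPQBP1 sample. The share of TUBB4B was 36.9%, 35.5% and 35.5% against 33.4%, 34.0% and 33.0%. Neither share overlapped between the groups, and the shares were given no test. The transcript of TUBB has a GC content of 51.1% and that of TUBB4B of 59.3%, and after the GC correction their log2 fold changes were 0.08 and 0.02. The part of GC content in the shares was not tested. The summed beta-tubulin FPKM was 1249 ± 110 in shNC cells and 1187 ± 21.2 in the shPQBP1 samples (SD, n = 3 each). The FPKM of all genes summed to 318484.3, 294970.3 and 304196.4 in shNC cells and to 282733.6, 287422.6 and 278285.8 in the shPQBP1 samples. Sums of FPKM here and below were not scaled to these totals, which were lower in all shPQBP1 samples.

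**Figure D3:**
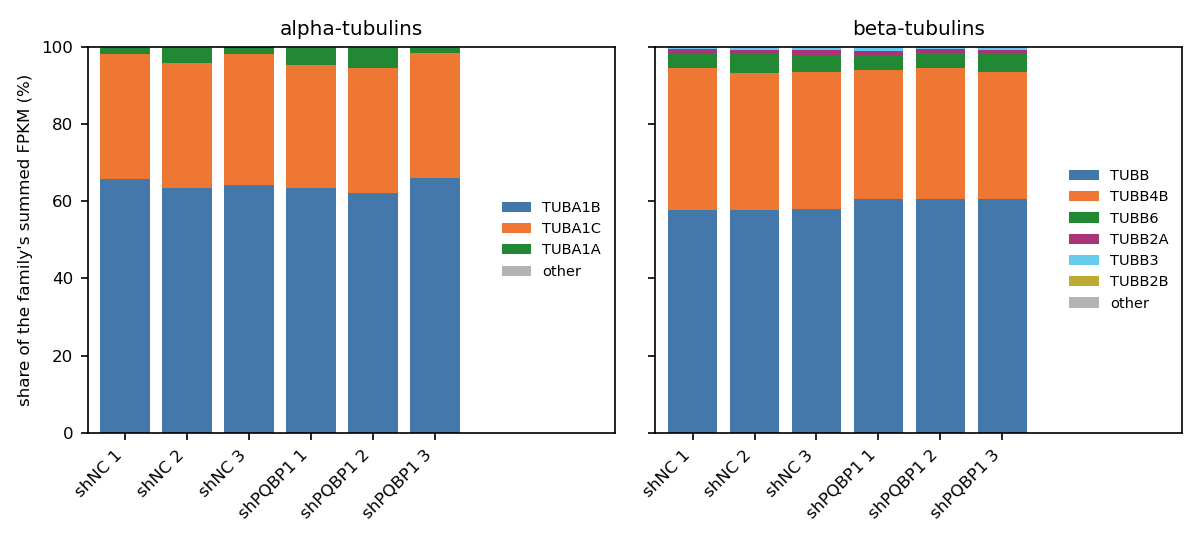
Share of each alpha-tubulin (left) and beta-tubulin (right) gene in the summed FPKM of its family, in percent, for each of the 6 samples. Each bar adds to 100% and the smallest isotypes are too thin to see. TUBB takes 57.7% to 57.9% of the beta-tubulin sum in shNC cells and 60.6% in the shPQBP1 samples, while TUBA1B takes 62.1% to 66% of the alpha-tubulin sum with no gap between the groups.

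The less abundant beta-tubulins varied between samples of the same group. TUBB2A, a class II isotype, had 18.92, 14.22 and 15.91 FPKM in shNC cells and 13.06, 13.62 and 12.11 FPKM in shPQBP1 cells (log2 fold change -0.33, limma adjusted p = 0.18, and -0.13 GC-corrected). Its near-identical neighbour TUBB2B, singled out after its values were seen, had 4.60, 0.06 and 0.05 FPKM against 3.07, 3.85 and 3.46 FPKM. TUBB2B was thus near 0 in shNC samples 2 and 3 and present in the other 4 samples, and its groups overlapped through shNC sample 1 (log2 fold change 2.88, SE 1.32, limma adjusted p = 0.245). Without shNC sample 1 the log2 fold change of TUBB2B was 4.52. Its call in that fit is not read as a test, because it rests on the sample left out. Of the samples kept, the shPQBP1 samples alone were above 1 FPKM. The sum of TUBB2A and TUBB2B was 23.52, 14.28 and 15.96 FPKM against 16.13, 17.47 and 15.57 FPKM and overlapped, and a wrong split of reads between them was not tested. TUBB3, the class III isotype of neurons and some tumours, had 2.90, 7.67 and 8.23 FPKM against 9.14, 2.37 and 8.01 FPKM, with 1 low sample in each group.

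Both gamma-tubulins had lower values upon knockdown, short of the adjusted threshold. TUBG1 (ENSG00000131462, chromosome 17 of hg38, 42609641 to 42615238), the gamma-tubulin of most cells, had 45.23, 37.80 and 38.49 FPKM in shNC cells and 27.65, 29.81 and 30 FPKM in shPQBP1 cells. The groups did not overlap, the log2 fold change was -0.47 (SE 0.09, limma adjusted p = 0.0568), and GC-corrected it was -0.29 (limma adjusted p = 0.0237). Over the fits that left out 1 sample, the adjusted p of TUBG1 ran from 0.0422 (without shNC sample 1) to 0.201 (limma). TUBG2 (ENSG00000037042, chromosome 17 of hg38, 42659284 to 42667006), its close copy on the same chromosome, had 6.34, 6.61 and 6.69 FPKM against 3.73, 4.67 and 4.72 FPKM. The groups did not overlap here either (log2 fold change -0.58, SE 0.11, limma adjusted p = 0.0552), and GC-corrected the log2 fold change was -0.39 (limma adjusted p = 0.138). The summed gamma-tubulin FPKM was 47.1 ± 3.93 in shNC cells and 33.5 ± 1.86 in the shPQBP1 samples (SD, n = 3 each). TUBG1 held 86% ± 1.47 of that sum in shNC cells and 87% ± 0.972 in the shPQBP1 samples.

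Among the mitotic kinesins, KIF2C had the highest level. It was the 1 called at an adjusted p under 0.05 as deposited (limma), where 2.91% of all genes were called. KIF2C (ENSG00000142945, chromosome 1 of hg38, 44739818 to 44767767) encodes the kinesin-13 MCAK, which does not walk but takes microtubule ends apart and corrects wrong attachments of chromosomes to the spindle. It had 68.45, 61.52 and 62.95 FPKM in shNC cells and 45.28, 48.33 and 47.98 FPKM in shPQBP1 cells, which lay close to each other and below all shNC samples. The log2 fold change was -0.44 (SE 0.07, limma adjusted p = 0.0345), and GC-corrected it was -0.38 (limma adjusted p = 0.00907). The transcript has a GC content of 50%. The log2 fold change of KIF2C stayed between -0.48 and -0.40 when each sample was left out in turn, while its adjusted p was 0.0328 without shNC sample 1 and 0.0812 to 0.153 without any of the others (limma).

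KIF18B and KIFC1 also had lower values in all shPQBP1 samples. KIF18B, a kinesin-8 that shortens astral microtubules, had 16.40, 13.61 and 13.93 FPKM in shNC cells and 10.75, 11.85 and 10.84 FPKM in shPQBP1 cells. Its log2 fold change was -0.39 (SE 0.10, limma adjusted p = 0.0983), and -0.24 GC-corrected (limma adjusted p = 0.0413). KIFC1, a minus-end-directed kinesin-14 that gathers spindle poles, had 51.30, 42.94 and 43.52 FPKM against 38.58, 40.46 and 39.44 FPKM. Its log2 fold change of -0.21 (limma adjusted p = 0.219) was -0.03 GC-corrected.

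KIF20A, KIF4A and KIF22 had groups that overlapped. KIF20A, a kinesin-6 of the central spindle, had 38.84, 37.01 and 35.12 FPKM in shNC cells and 38.72, 38.15 and 39.57 FPKM in shPQBP1 cells (log2 fold change 0.07, SE 0.07, limma adjusted p = 0.547). KIF4A, a chromosome-bound kinesin-4, had 22.8 ± 0.45 FPKM in shNC cells and 23.4 ± 0.225 FPKM in shPQBP1 cells. KIF22, which pushes chromosome arms away from the poles, had 15.8 ± 1.51 against 14.8 ± 0.823 FPKM (log2 fold change -0.09, limma adjusted p = 0.582).

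The other 6 mitotic kinesins tested were lowest in shNC sample 1. KIF14, a kinesin-3 of the midbody, had 2.48, 6.66 and 4.83 FPKM in shNC cells and 10.68, 6.11 and 8.98 FPKM in shPQBP1 cells, and its groups overlapped (log2 fold change 0.94, SE 0.38, limma adjusted p = 0.21). Without shNC sample 1 the log2 fold change of KIF14 was 0.55, and GC-corrected it was 0.67. KIF11, the kinesin-5 that pushes spindle poles apart, had 14.56, 29.22 and 25.03 FPKM against 36.26, 28.88 and 35.02 FPKM (log2 fold change 0.59, limma adjusted p = 0.234, and 0.30 without shNC sample 1). KIF15, the kinesin-12 that can stand in for KIF11, KIF18A, a kinesin-8 that aligns chromosomes, KIF20B, a kinesin-6 of cytokinesis, and KIF23, the motor of the central spindle complex centralspindlin, had log2 fold changes of 0.69, 0.56, 0.83 and 0.37, and of 0.34, 0.22, 0.39 and 0.18 without shNC sample 1. In all 4 the adjusted p was between 0.244 and 0.352 (limma) and the groups overlapped. These 6 genes, grouped after their values were seen, have transcripts with a GC content between 34.3% and 41.6%.

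The 14 markers of dividing cells are given beside them. All 14 passed the filter. At an unadjusted p under 0.05 (limma), 1 was higher (BUB1B) and 2 were lower (AURKA and AURKB), against 11.9% and 11.7% of all genes. None of the 14 passed the adjusted threshold (limma). Their median log2 fold change was 0.05, turning to -0.03 GC-corrected and -0.07 without shNC sample 1. The groups did not overlap in 5 lower markers (AURKA, AURKB, CCNB1, CCNB2 and CDC20) and 1 higher, BUB1B. The shares over all genes were 17.1% lower and 17.3% higher. The part of these 14 markers in the values of KIF2C and KIF18B was not tested. Their summed FPKM was 584.05, 672.31 and 613.91 in shNC cells and 629.03, 583.58 and 622.42 in the shPQBP1 samples, and none was at 0 in any sample. The summed FPKM of the 13 mitotic kinesins was 260 ± 10.3 in shNC cells and 262 ± 9.65 in the shPQBP1 samples (SD, n = 3 each), and these sums overlapped.

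Among the 8 cargo-carrying kinesins tested, 1 was higher and 1 was lower at an unadjusted p under 0.05 (limma). The shares over all genes were 11.9% and 11.7%. None passed the adjusted threshold (limma), against 2.91% of all genes. KIF13A, a kinesin-3 that carries endosomes, had 4.48, 5.78 and 5.65 FPKM in shNC cells and 6.60, 6.89 and 7.31 FPKM in shPQBP1 cells. It was the single member tested whose shPQBP1 samples all lay above the shNC samples (log2 fold change 0.39, SE 0.12, limma adjusted p = 0.134), and it was 0.40 GC-corrected. KIF13B, its closest relative in the family, had 2.80, 2.55 and 2.69 against 2.21, 2.25 and 2.25 FPKM, with the opposite direction (log2 fold change -0.25, SE 0.09, limma adjusted p = 0.178, and -0.20 GC-corrected). KIF5B, the heavy chain of conventional kinesin-1 and the most abundant transport motor here, had 21.13, 53.14 and 42.31 FPKM against 63.28, 45.77 and 53.17 FPKM (log2 fold change 0.56, SE 0.34, limma adjusted p = 0.343). It was lowest in shNC sample 1, without which its log2 fold change was 0.18.

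KIF1C and KIF3B were next in level. KIF1C, a fast kinesin-3, had 23.27, 19.3 and 19.51 FPKM in shNC cells and 21.22, 23.76 and 22.06 FPKM in shPQBP1 cells, and its groups overlapped (log2 fold change 0.11, limma adjusted p = 0.503). KIF3B, a motor subunit of kinesin-2, had 16.44, 17.51 and 17.5 against 15.8, 16.28 and 16 FPKM, a small difference without overlap (log2 fold change -0.10, limma adjusted p = 0.409). KIF3A, KIF3C and KIF1B had log2 fold changes of 0.19, 0.02 and -0.05. The neuronal motors KIF1A, KIF5A, KIF5C and KIF17, with KIF16B, were under the filter, with mean levels of 0.00833 to 0.558 FPKM.

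Of the 6 other kinesins tested, KIF7 alone had an unadjusted p under 0.05 (limma), where 11.7% of all genes were called lower. KIF7, a kinesin-4 that organises the tip of the primary cilium in Hedgehog signalling, had 3.27, 2.97 and 3.14 FPKM in shNC cells and 1.96, 2.51 and 2.57 FPKM in shPQBP1 cells. Its groups did not overlap (log2 fold change -0.41, SE 0.13, limma adjusted p = 0.141), the transcript has a GC content of 64.1%, and GC-corrected the log2 fold change was -0.22. KIF2A, the kinesin-13 relative of KIF2C, had 6.44, 10.89 and 9.88 FPKM against 11.5, 9.69 and 11.67 FPKM (log2 fold change 0.30, limma adjusted p = 0.396, and 0.01 GC-corrected). KIFC3, a kinesin-14, had 7.36, 5.71 and 6.35 against 5.27, 5.96 and 6 FPKM. KIF24, a kinesin-13 of centrioles, had 3.42, 3.61 and 3.36 against 3.38, 3.32 and 3.56 FPKM. The groups of KIF2A, KIFC3 and KIF24 overlapped. KIF21A and KIFC2 were the other members tested, and KIF6, KIF9, KIF21B, KIF26B and KIF27 were under the filter.

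The fold changes of tubulins and kinesins followed the GC content of their transcripts. Across the 38 genes tested, Spearman's rho of the log2 fold change and GC content was -0.702, and over 11385 genes of the table it was -0.459. GC-corrected, rho was -0.374 over the 38 and -0.006 over the 11385. Without shNC sample 1 it was -0.54 over the 38, so a slope remained among the members in both settings. These values describe genes of the same 6 samples and are given no p. In 10 members the GC content was at most 42%, a limit set after the data were seen, and all 10 were higher in the shPQBP1 samples on average and lowest in shNC sample 1, with a median log2 fold change of 0.58. Over all 3028 tested genes in that range, 80.3% were higher, 73.1% were lowest in shNC sample 1 and the median was 0.25. Of the 28 members with a higher GC content, 20 were lower and 16 were highest in shNC sample 1, with a median of -0.1. GC-corrected, 15 of these 28 were higher with a median of 0.03, and without shNC sample 1 it was 10, with a median of -0.06. For the low-GC members, GC-corrected, 9 of the 10 were still above 0 with a median of 0.35, and without shNC sample 1 it was also 9, with a median of 0.26.

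**Figure D4:**
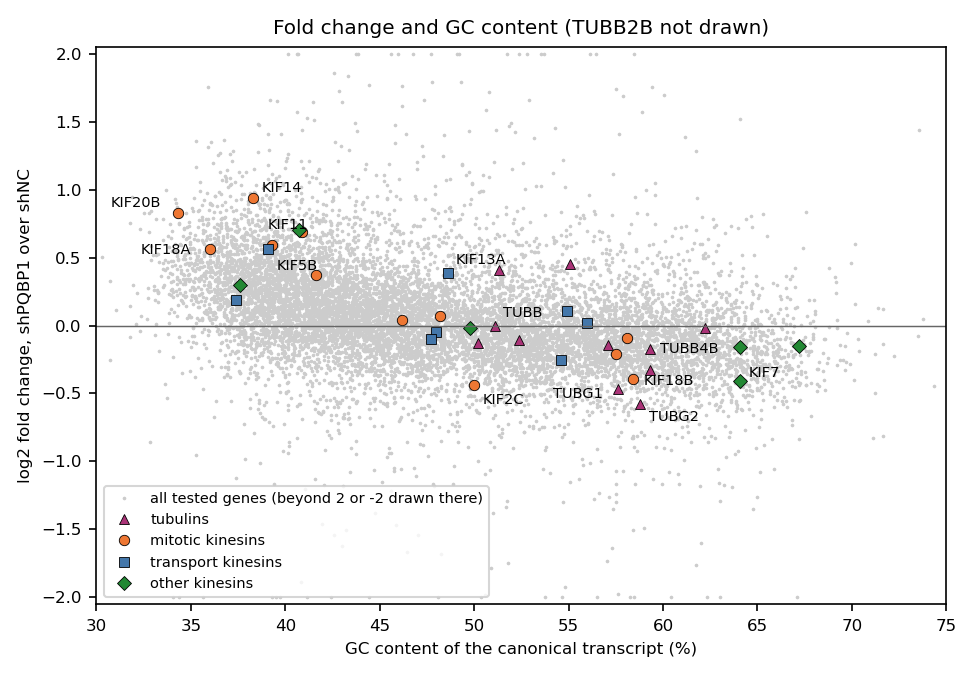
Log2 fold change of shPQBP1 over shNC against the GC content (%) of the canonical transcript, for all tested genes (grey) and for tubulins and kinesins (coloured by role, TUBB2B not drawn). Members with a GC content of at most 42% lie above 0 and most others below, as in the slope over all genes (rho = -0.459), and KIF2C, at 50%, lies at -0.44.

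Among other genes of the microtubule system, BICD2 was the 1 called at an adjusted p under 0.05 as deposited (limma). Of 123 genes in lists of the gamma-tubulin ring complex, tubulin folding cofactors, tubulin-modifying enzymes, microtubule-associated proteins, kinesin partners, and dynein with dynactin, 95 were tested. Of these, 8 were higher and 5 were lower with an unadjusted p under 0.05 (limma), against 11.9% and 11.7% of all genes. The adjusted threshold was passed by 1 (limma), against 2.91% of all genes. Their median log2 fold change was 0.05. BICD2, an adaptor that links cargo to dynein, had 13.27, 12.21 and 12.36 FPKM in shNC cells and 17.07, 17.49 and 16.95 FPKM in shPQBP1 cells. It rose without overlap (log2 fold change 0.44, SE 0.07, limma adjusted p = 0.0345), and GC-corrected the adjusted p was 0.0052, while leaving out 1 sample moved it from 0.0206 (without shNC sample 1) to 0.149 (limma).

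Of the 12 genes listed for the gamma-tubulin ring complex, not all of which encode its subunits, 11 were tested. None had an unadjusted p under 0.05 or an adjusted p under 0.05 (limma), and the median log2 fold change was 0.02. Of all genes, 11.9% were higher and 11.7% lower at the unadjusted threshold, and 2.91% passed the adjusted one. Among the kinesin partners, KLC2, a cargo-binding light chain of kinesin-1, had 7.13, 5.97 and 6.08 FPKM in shNC cells and 4.28, 4.49 and 4.49 FPKM in shPQBP1 cells (log2 fold change -0.52, limma adjusted p = 0.0517, and 0.0353 with -0.31 GC-corrected). KIFAP3, the subunit that joins kinesin-2 to cargo, had 3.89 ± 0.386 against 4.84 ± 0.356 FPKM (limma adjusted p = 0.165). Of the tubulin folding cofactors, TBCD had a log2 fold change of -0.30 (limma adjusted p = 0.162). TTC5, which recognises new tubulin chains and starts the decay of their mRNA when free tubulin is in excess, had 2.59 ± 0.19 against 2.34 ± 0.248 FPKM and overlapped between the groups (log2 fold change -0.14, limma adjusted p = 0.48).

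The tubulin-modifying enzymes TTL, which puts tyrosine back on alpha-tubulin, and TTLL1, which adds glutamate chains, had log2 fold changes of 0.26 and 0.53 (limma adjusted p = 0.153 and 0.13). Among the microtubule-associated proteins, MAP1B had 9.44, 16.66 and 15.69 FPKM in shNC cells and 22.33, 20.48 and 21.98 FPKM in shPQBP1 cells, lowest in shNC sample 1 (log2 fold change 0.67, limma adjusted p = 0.143, and 0.0457 with 0.41 without that sample). SPAST, which severs microtubules, had a log2 fold change of 0.91 (limma adjusted p = 0.132). EML3 and the end-binding protein MAPRE3 had log2 fold changes of -0.39 and -0.51 (limma adjusted p = 0.12 and 0.128). Other than BICD2, none of the genes named here passed the adjusted threshold as deposited.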

How the data were processed

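RNA-seq of 3 shNC and 3 shPQBP1 HEY samples was analysed. Per the paper's methods and the submitters' processing notes, reads were mapped to hg38 with HISAT2 (version 2.2.0), sorted with SAMtools (version 1.9) and assembled with StringTie (version 1.3.0), and the groups were compared with edgeR. The authors deposited a single gene table of FPKM values, a column per sample, and the annotation release is not given in the sources used here. FPKM divides by transcript length and sequencing depth and does not correct for base composition. The authors' columns of fold changes, p-values and q-values hold their own comparison and were not used, and 0 columns of values per sample were left out. The low values showed no steps of whole reads (strongest step 0.279 to 0.308, where 1 would be perfect), so a count test could not be run in place of the edgeR design, the depth is unknown and the spread between samples stands for all error.

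Genes with a mean of at least 1 FPKM over the 6 samples were tested on log2(FPKM + 0.1) in R (version 4.3.3) with limma (version 3.58.1). The moderated test was two-sided and used a mean-variance trend (eBayes), and p-values were adjusted over all 11413 genes by Benjamini-Hochberg. On this scale the changes of low genes come out too small. The GC correction regressed the log2 values of a sample on GC content and log length and kept the residuals (natural splines, 5 degrees of freedom each, canonical transcripts of GENCODE on hg38), for 11385 genes. Positions come from the same annotation and promoters from RefSeq. The steps were tested on simulated data. Alternatives were other scalings, filters and pseudocounts, no trend, the replicate number as a block and each sample left out.

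Values in each sample are given for members with an unadjusted p under 0.05, for the 3 most abundant members of each role and for both gamma-tubulins. Of the related genes, the 10 with the smallest p are named, with PQBP1 and TTC5 always. The members and lists were chosen with earlier results of these data known. KIF2B and DYNLRB2 were not analysed here.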

Additional observations from a re-analysis of the deposited data

How the results depend on the processing

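Members at an adjusted p under 0.05 (limma) numbered 3 of 38 under quantile normalization and after the GC correction. Of all genes, 417 of 11413 and 938 of 11385 were called there. Members numbered 2 of 20 among genes with a mean of at least 10 FPKM (211 of 3661 genes in all). They numbered 0 with genes above 0 in at least 1 sample (190 of 30717 genes) or with no mean-variance trend (382 of 11413). Leaving out 1 sample gave 0 to 3. Members at an unadjusted p under 0.05 numbered 4 at a mean of at least 10 FPKM and 5 to 17 with 1 sample left out, with 17 without shNC sample 2 and 5 without shNC sample 3 or shPQBP1 sample 3, where the shares over all genes were 26.1%, 25.8%, 19.6% and 15.8%. With a fold change of 2 as well, leaving out 1 sample gave 0 to 2, and the share over all genes was not counted there. The related genes at an adjusted p under 0.05 numbered 2 under median-of-ratios scaling, where 362 of all 11413 genes were called. They numbered 0 with genes above 0 in at least 1 sample, 3 after the GC correction and 0 to 3 with 1 sample left out. At an unadjusted p under 0.05 they numbered 3 at a mean of at least 10 FPKM and 7 to 23 with 1 sample left out. The shares over all genes were 26.1% and 15.6% to 25.8%. The number of all genes called ran from 30 to 464 with 1 sample left out and was 938 after the GC correction, against 332. At a mean of at least 10 FPKM, the median log2 fold change of all members was -0.09, of mitotic kinesins -0.03 and of other kinesins 0.30 (1 gene). With genes above 0 in at least 1 sample the mitotic median was 0.07. After the GC correction, with or without the block, the medians of all members, tubulins and other kinesins were 0.05, 0.03 and 0.02. With 1 sample left out, medians ran from -0.01 to 0.03 for all members, from -0.03 to 0.08 for transport kinesins and from -0.12 to 0.04 for other kinesins. The cause was not tested where the construction does not show it.

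Same-numbered samples did not deviate together (correlations -0.186, -0.138 and -0.011). Pairs with different numbers had correlations from -0.143 to 0.225. With 3 samples in each group, these values cannot settle whether same-numbered samples were handled together. With the number as a replicate block, 0 members, 0 related genes and 0 of all genes had an adjusted p under 0.05 (limma). With the GC correction as well, 0 members and 0 related genes did, and 21 of 11385 genes in all. Under the block without that correction, 5 members and 8 related genes had an unadjusted p under 0.05 (limma), against 16.1% of all genes. The log2 fold change of PQBP1 under the block was -2.04 (limma adjusted p = 0.0686), and -1.86 with the GC correction (limma adjusted p = 0.0543). The adjusted p of KIF2C was 0.236 under the block, 0.0536 with no trend and 0.0685 with genes above 0 in at least 1 sample (limma). Signs turned for TUBB (0.20 under quantile normalization, 0.08 after the GC correction with and without the block, -0.04 to 0.07 with 1 sample left out), TUBA1B (0.08 under quantile normalization), TUBB4B (0.02), TUBB6 (0.03) and KIFC3 (0.04) after the GC correction with and without the block, and KIF24 (-0.05 to 0.01 with 1 sample left out).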
